A study of Macaca mulatta with 102 samples.

Results

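The 6 genes described here, of 10718 with a tested probe set of their own, act in the Th17 program of T cells: the transcription factors BATF, IRF4, STAT3 and RORA and the receptor chains IL23R and IL17RE. They were measured in CD3+ T cells of rhesus macaques after hematopoietic cell transplant and of healthy macaques. Every probe set that the platform annotation pairs with 1 of these genes alone was taken, which gave 9 probe sets of 6 genes among 52865 probe sets. RORA, IL23R and IL17RE have 2 probe sets each, which are reported separately, and BATF, IRF4 and STAT3 have 1 each. All 9 were among the 31703 probe sets tested, since each reached 5.21, the median of all log2 values, in at least 3 arrays. The platform annotation pairs none of them with a further gene.

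Th17 cells are the helper T cells that make IL-17 and IL-22 and act against extracellular bacteria and fungi at barriers. In the textbook account, worked out mostly in mice, BATF and IRF4 bind together at composite sites soon after activation and open chromatin, and STAT3 is switched on by IL-6, IL-21 and IL-23. The nuclear receptor RORα, encoded by RORA, then helps to drive the lineage genes. IL23R is the specific chain of the IL-23 receptor and maintains committed Th17 cells, and IL17RE pairs with IL17RA as the receptor for IL-17C. BATF and IRF4 serve every effector T cell and not Th17 cells alone, so their levels in whole T cells also follow activation. In graft-versus-host disease donor T cells attack tissues of the recipient, and Th17 cells are counted among the cells that take part.

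Sorted T cells of blood were hybridised to 102 Affymetrix arrays from 66 animals in 16 groups, with the number of animals in a group limiting the precision. Drug names are read from the group labels with knowledge of the study, which tested KY1005, an antibody against OX40 ligand, and the ending F is used as the labels give it. Recipients of donor cells without prophylaxis formed NoRx.F (4 animals, days 6 to 12), and recipients given sirolimus, an inhibitor of mTOR, formed Siro.F (4 animals, days 12 to 24). The calcineurin inhibitor tacrolimus, combined with methotrexate, was given in Tac.Mtx.D14 (3 animals, day 14) and Tac.Mtx.F (3 animals, days 26 to 67). Sirolimus was joined to belatacept, a blocker of costimulation through CD28, in Bela.Siro.D14 (3 animals), in Bela.Siro.D30 (2 animals) and in Bela.Siro.F (7 animals, days 26 to 105). KY1005 alone gave KY1005.D14 (2 animals, days 14 to 16) and KY1005.F (3 animals, days 16 to 23). The pair of KY1005 and sirolimus was given in KY1005.Siro.D14 and KY1005.Siro.D28 (5 animals each) and in KY1005.Siro.F (4 animals, days 97 to 106). Recipients of their own cells formed Auto.D14 (3 animals), Auto.D36 (4 animals, days 30 to 36) and Auto.D100 (4 animals). Healthy.Control held 46 arrays of 45 animals labelled as healthy controls, 11 of which also gave arrays in the transplant groups. The labels give no age, sex, strain or conditioning.

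Of 9 core T cell markers 4 were measured (CD4, CD5, CD8A and CD8B), and the mean log2 level of these had group medians between 9.69 in KY1005.Siro.F and 10.41 in Auto.D36, against 10.09 in Healthy.Control. Myeloid markers were also present, with group medians of the mean of 11 markers from 6.30 in Auto.D100 to 9.23 in KY1005.Siro.F, against 6.68 in Healthy.Control. The log2 ratio of the 3' to the 5' actin control probe sets, a sign of RNA integrity and labelling, exceeded 2.5 on 6 arrays. These were the arrays of R.201 and R.202 in Auto.D14 and of R.32, R.22, R.207 and R.208 in Healthy.Control. Arrays came in 6 labelled batches. All KY1005 and KY1005.Siro arrays lie in batch 6, which holds 7 healthy arrays, among them those of R.207 and R.208. In the 45 healthy samples a batch effect had p under 0.05 for 0.255% of probe sets and p above 0.95 for 24.3%, where chance gives 5% each, so the deposited values vary less between batches than chance would give. Differences are log2 differences ± SE from a limma fit of all groups with batch as a factor, and a probe set is called when its p adjusted by the Benjamini-Hochberg method over all 31703 probe sets is under 0.05.

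Against Healthy.Control the 9 probe sets gave 17 calls over 15 groups, and no group had more than 4. In NoRx.F 2 were higher and 2 lower, where 13.5% of all tested probe sets were called higher and 14% lower, 27.5% in all. In Siro.F 1 was higher and 1 lower, against 4.24% and 4.67% of all tested probe sets (8.9% in all). In Auto.D14 1 was higher and 1 lower, against 8.41% and 11% (19.4% in all). The groups with 2 higher were KY1005.F (1.72% of all probe sets higher, 3.28% called either way), KY1005.Siro.D28 (6.94% and 12.1%) and Auto.D36 (5.13% and 9.26%). Those with 1 higher were Tac.Mtx.F (6.9% higher, 14.3% either way), Bela.Siro.F (5.23% and 10%) and KY1005.Siro.D14 (1.58% and 4.15%). None of the 9 was called in the other groups, where 0.88% of all probe sets were called in Tac.Mtx.D14, 2.68% in Bela.Siro.D14, 1.14% in Bela.Siro.D30, 0.202% in KY1005.D14, 6.84% in KY1005.Siro.F and 2.48% in Auto.D100. At an unadjusted p under 0.05, limma gave 1 to 3 of the 9 probe sets in each of these, against 3800 to 7547 of all 31703.

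**Figure D1:**
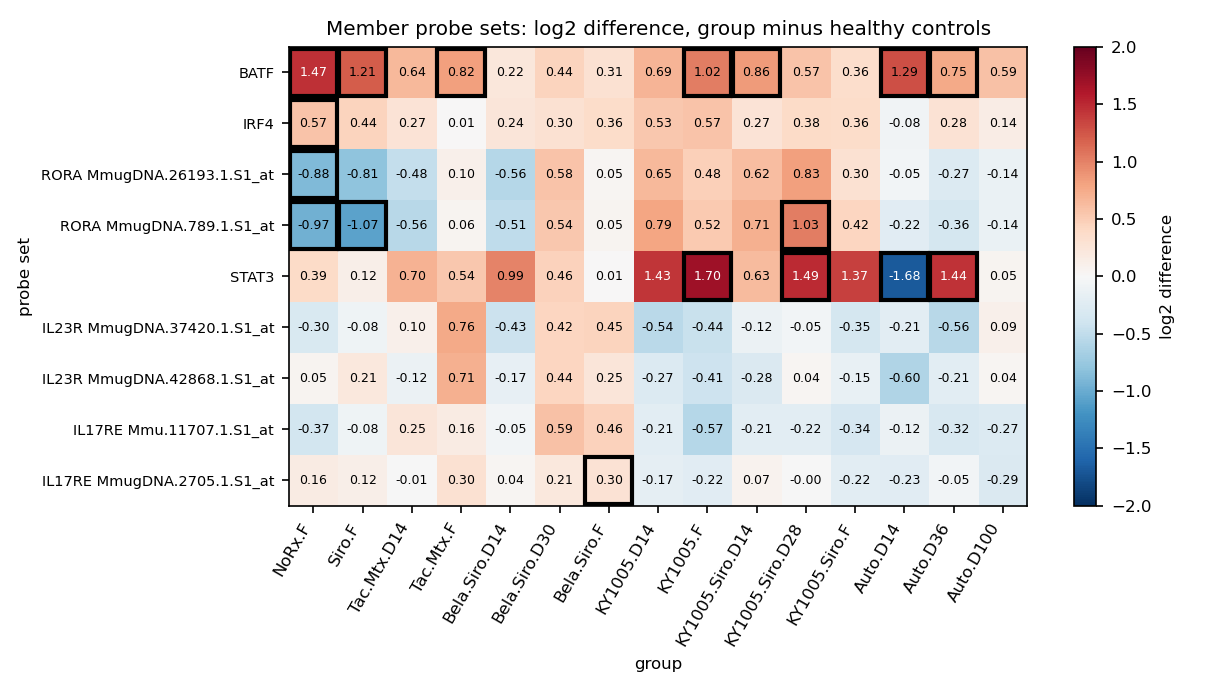
Log2 difference of each of the 9 probe sets (rows) between each of 15 transplant groups (columns) and Healthy.Control, as fitted with batch, with the value in each cell. Black frames mark the 17 differences called. BATF is positive in all 15 columns, from 0.22 in Bela.Siro.D14 to 1.47 in NoRx.F, whereas the RORA rows change sign between regimens.

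BATF, the AP-1 family factor that acts with IRF4, was above healthy in every transplant group and most of all in recipients without prophylaxis. Its level was 9.04, 9.66, 9.74 and 9.94 in NoRx.F and 8.97, 9.01, 9.67 and 9.71 in Siro.F, against a lowest of 7.43, a median of 8.14 and a highest of 8.96 in Healthy.Control. Every array of NoRx.F and of Siro.F lay above every healthy array, and these were the only groups in which BATF did not overlap healthy. The share of all probe sets without overlap is not given. The difference was 1.47 ± 0.21 in NoRx.F (adjusted p = 4.38e-08) and 1.21 ± 0.20 in Siro.F (adjusted p = 1.78e-05). Within the batches that hold each group it was 1.47 in NoRx.F (adjusted p = 9.11e-05) and 1.23 in Siro.F (adjusted p = 0.00266). In such bulk samples more or fewer cells of a type and more or less RNA per cell cannot be told apart.

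BATF was also called in 5 further groups, each overlapping healthy. In Auto.D14 it was 8.91, 9.12 and 9.65, against 8.14 as the healthy median, and rose by 1.29 ± 0.27 (adjusted p = 0.000892). Of these 3 arrays the 2 with the higher BATF are those with a high actin ratio, and without all 6 such arrays the difference was 0.97, past no threshold (adjusted p = 0.508). In KY1005.F it was 8.92, 9.01 and 9.47 and rose by 1.02 ± 0.25 (adjusted p = 0.0135), and in KY1005.Siro.D14 it was 8.32, 8.46, 9.10, 9.46 and 9.51 and rose by 0.86 ± 0.21 (adjusted p = 0.00943). Within batch 6 alone both had the same size, with adjusted p = 0.206 and 0.192. With the myeloid level as a covariate the KY1005.Siro.D14 difference was 0.71 and not called (adjusted p = 0.0596). In that group 3 of 11 measured myeloid markers rose (1.58% of all probe sets higher), with mean levels of 7.60 to 8.99 against 5.42 to 8.15 in Healthy.Control. In Tac.Mtx.F BATF was 8.54, 9.29 and 9.46 and rose by 0.82 ± 0.23 (adjusted p = 0.0108), a call lost without R.20 or R.21 (0.72 and 0.64, adjusted p = 0.106 and 0.162). In Auto.D36 it was 8.35, 8.77, 8.91 and 9.25 and rose by 0.75 ± 0.21 (adjusted p = 0.0149), a call lost without R.62, R.200 or R.201 (0.56, 0.76 and 0.72, adjusted p = 0.15, 0.0508 and 0.0636). The KY1005.F call was lost without R.206 or R.211 (0.85 and 1.13, adjusted p = 0.127 and 0.0823), and the KY1005.Siro.D14 call without R.219 or R.221 (0.72 and 0.74, adjusted p = 0.0644 and 0.0623).

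The other 8 groups gave no call, with differences of 0.69 ± 0.29 in KY1005.D14, 0.64 ± 0.23 in Tac.Mtx.D14, 0.59 ± 0.22 in Auto.D100 and 0.57 ± 0.21 in KY1005.Siro.D28. The lowest values were 0.36 ± 0.23 in KY1005.Siro.F, 0.31 ± 0.17 in Bela.Siro.F and 0.22 ± 0.23 in Bela.Siro.D14. In the order of the fitted levels NoRx.F (9.61), Auto.D14 (9.44), Siro.F (9.35) and KY1005.F (9.16) came highest, and Bela.Siro.F (8.45), Bela.Siro.D14 (8.36) and Healthy.Control (8.14) came lowest. Neighbours in the order of all 16 groups differed by less than the SE of their levels combined.

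Set directly against NoRx.F, BATF was lower in KY1005.Siro.D28 and Bela.Siro.F. In KY1005.Siro.D28 it was 8.30, 8.59, 8.66, 8.79 and 9.09, against 9.04, 9.66, 9.74 and 9.94 in NoRx.F, and fell by 0.90 ± 0.30 (adjusted p = 0.0215). In Bela.Siro.F its lowest, median and highest were 8.15, 8.54 and 8.96, all below NoRx.F, and it fell by 1.16 ± 0.27 (adjusted p = 0.00129). For this comparison too the share of all probe sets without overlap is not given. These comparisons were added after the values were seen, where 11% of all probe sets were called lower and 24% either way in KY1005.Siro.D28, and 6.41% and 14% in Bela.Siro.F. The differences of -0.65 ± 0.32 in Tac.Mtx.F (likewise added later, 5.19% of all called), -0.61 ± 0.30 in KY1005.Siro.D14 (15.6%), -0.45 ± 0.33 in KY1005.F (8.75%) and -0.26 ± 0.26 in Siro.F (6.46%) against NoRx.F were not called. NoRx.F serves in all of these comparisons, and its day after transplant and its batches differ from those of the KY1005.Siro and Bela.Siro groups. The difference of KY1005.Siro.D28 from NoRx.F was not called without R.220 or R.50 (-0.80 and -0.79, adjusted p = 0.0551 and 0.0623) or without arrays of high actin ratio (-0.80, adjusted p = 0.0583). With the proliferation level described next as a covariate neither was called, at -0.47 in KY1005.Siro.D28 (adjusted p = 0.482) and -0.81 in Bela.Siro.F (adjusted p = 0.199).

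**Figure D2:**
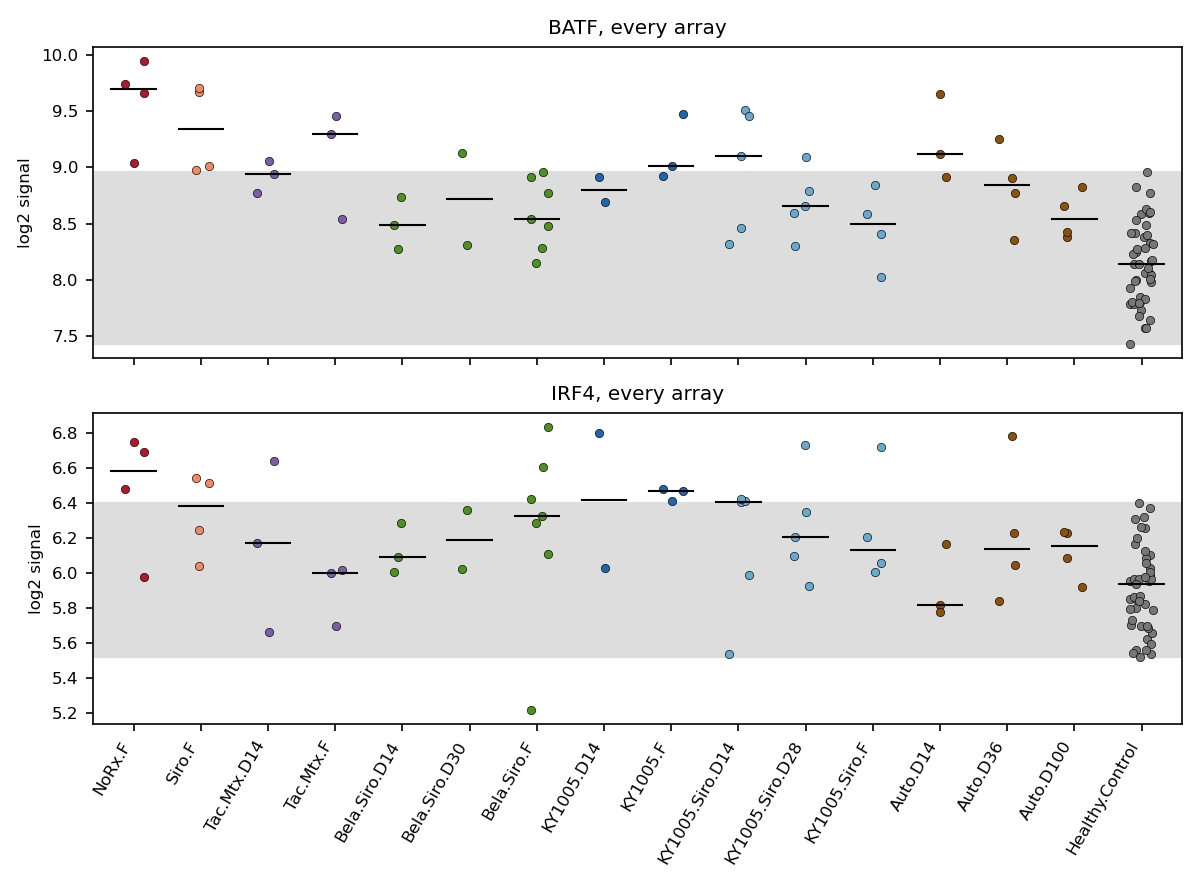
Log2 signal of BATF (upper panel) and IRF4 (lower panel) on every array, with 1 point per array, groups along the horizontal axis and Healthy.Control at the right. Black bars are group medians and the grey band spans the lowest to the highest healthy array, which all NoRx.F and Siro.F points exceed for BATF.

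In several groups proliferation genes moved with BATF. All 6 measured of 7 proliferation markers (MKI67, TOP2A, CCNB2, TYMS, CDK1 and MCM4) rose in NoRx.F, Siro.F, Tac.Mtx.F and Auto.D36. Of all probe sets 13.5%, 4.24%, 6.9% and 5.13% were called higher in these groups. The mean level of the list ran from 8.55 to 10.17 in NoRx.F and from 6.84 to 9.14 in Siro.F, against 5.09 to 7.11 in Healthy.Control. With that mean level as a covariate BATF was 1.05 higher in NoRx.F (adjusted p = 0.0302) and 0.98 higher in Siro.F (adjusted p = 0.0126) than in Healthy.Control. BATF also stayed called in Auto.D14 and KY1005.Siro.D14. Tac.Mtx.F, KY1005.F and Auto.D36, at 0.62, 0.83 and 0.52, were no longer called (adjusted p = 0.148, 0.152 and 0.466). Across the 16 fitted group levels the genes with the pattern most like BATF were STIL (Pearson r = 0.920), AURKA (0.903) and TROAP (0.889), of which AURKA encodes a mitotic kinase. In KY1005.Siro.D14, where BATF rose, none of the 6 proliferation genes was called. Of all probe sets 1.58% were called higher there and 4.15% either way. The mean level of the list ran from 6.02 to 7.23 in KY1005.Siro.D14, with a median of 6.60 against 5.91 in Healthy.Control.

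IRF4, the partner of BATF at composite sites, moved less and passed the test in NoRx.F alone. Its level was 5.98, 6.48, 6.69 and 6.75 in NoRx.F, against a lowest of 5.52, a median of 5.94 and a highest of 6.40 in Healthy.Control, so that 3 of 4 arrays lay above all healthy ones. The difference was 0.57 ± 0.18 (adjusted p = 0.0106), and 0.55 within the batches that hold the group (adjusted p = 0.0247). The call was lost without R.53 or R.52 (0.44 and 0.51, adjusted p = 0.132 and 0.0512) and with the proliferation level as a covariate (0.50, adjusted p = 0.328). In KY1005.F the difference was as large, 0.57 ± 0.21, and its arrays at 6.41, 6.47 and 6.48 lay above all healthy arrays, but it was not called (adjusted p = 0.102). The share of all probe sets without overlap in KY1005.F is not given, and 3.28% of all were called there. In Siro.F it was 0.44 ± 0.17 (adjusted p = 0.0985) and in Bela.Siro.F 0.36 ± 0.14 (adjusted p = 0.0886). The fitted IRF4 difference from healthy was positive in 14 of 15 groups, of which 1 was called, with Auto.D14 at -0.08 ± 0.22 as the exception. The smallest positive one was 0.01 ± 0.19 in Tac.Mtx.F. All of these share the same healthy arrays.

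IRF4 is abundant in plasma cells and B cells, and some plasma cell genes were also higher in NoRx.F and Siro.F. The mean level of 6 measured B cell markers ran from 5.89 to 6.00 in NoRx.F and from 5.95 to 6.20 in Siro.F. Both lay inside the healthy range of 5.19 to 6.66. Of 6 plasma cell markers 5 were measured, and 2 rose in each of these groups (13.5% of all probe sets higher in NoRx.F and 4.24% in Siro.F). In Auto.D14, where BATF was also high, 1 rose and 1 fell (8.41% of all probe sets higher and 11% lower), and the list level ran from 6.52 to 6.77. Whether these Auto.D14 calls depend on the actin ratio was not tested. MZB1, a chaperone of antibody secretion, rose by 1.25 ± 0.17 in NoRx.F and 1.05 ± 0.17 in Siro.F, and XBP1, a factor of the unfolded protein response, by 0.58 ± 0.14 and 0.42 ± 0.14. The mean level of the list was 6.82 to 7.24 in NoRx.F and 6.84 to 7.66 in Siro.F, against 6.40 to 7.23 in Healthy.Control. JCHAIN, which joins secreted antibodies, differed by -0.12 ± 0.37 and 0.65 ± 0.35, with no call (adjusted p = 0.859 and 0.278). With the list level as a covariate IRF4 in NoRx.F stayed called (0.63, adjusted p = 0.0143), as did BATF in NoRx.F (1.27) and Siro.F (1.00).

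Of the 8 AP-1 and IRF family partners listed, 5 were measured. In NoRx.F 2 of these rose and 1 fell, where 13.5% of all probe sets were called higher and 14% lower. The median difference of the list was 0.47, against 0.01 over all probe sets. IRF8, which binds the same composite sites, rose by 2.52 ± 0.30 in NoRx.F and by 2.07 ± 0.29 in Siro.F, and BATF3, the relative of BATF used in dendritic cells, rose by 0.47 ± 0.18 in NoRx.F. JUNB, the usual dimer partner of BATF in T cells, fell by 1.59 ± 0.35 in NoRx.F. Of 11 genes listed as targets of BATF and IRF4, 8 were measured, and 6 rose and none fell in NoRx.F (median difference 1.14), where 27.5% of all probe sets were called. In Siro.F 5 rose and none fell (median difference 0.89), with 8.9% called overall. LAG3, an inhibitory receptor, rose by 3.89 ± 0.35 in NoRx.F and 2.64 ± 0.34 in Siro.F. CTLA4, the inhibitory counterpart of CD28, rose by 1.56 ± 0.36 and 1.57 ± 0.34, and TIGIT, an inhibitory receptor for nectin-like proteins, by 1.19 ± 0.25 and 1.48 ± 0.24. IL21, a cytokine of follicular helper and Th17 cells, rose in Siro.F by 0.84 ± 0.19.

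STAT3, the transducer of IL-6, IL-21 and IL-23 signals, was called in 4 groups, 3 higher and 1 lower, and its level moved closely with the actin ratio. In KY1005.F it was 7.95, 8.41 and 8.58, against a lowest of 4.35, a median of 6.99 and a highest of 8.04 in Healthy.Control, and rose by 1.70 ± 0.50 (adjusted p = 0.0418). In KY1005.Siro.D28 it was 7.64, 8.00, 8.00, 8.23 and 8.62 and rose by 1.49 ± 0.43 (adjusted p = 0.0138). In Auto.D36 it was 6.87, 8.54, 8.77 and 9.28, so that 3 arrays lay above all healthy ones and 1 below their median, and it rose by 1.44 ± 0.42 (adjusted p = 0.0204). In Auto.D14 it was 5.03, 5.43 and 7.41, of which the array at 7.41 lay above the healthy median, and it fell by 1.68 ± 0.54 (adjusted p = 0.0209). KY1005.Siro.F, at 7.60, 7.91, 8.18 and 8.26, had a difference of 1.37 ± 0.46 that was not under the threshold (adjusted p = 0.05).

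In the 45 healthy samples STAT3 fell as the log2 actin ratio rose (Pearson r = -0.814, Spearman rho = -0.809, adjusted permutation p = 9e-05 for both over 9 probe sets, the smallest these permutations give). The relation held without the 2 arrays farthest from the median ratio (r = -0.761) and within batches (r = -0.800). The 2 low arrays of Auto.D14, at 5.03 and 5.43, had log2 actin ratios of 3.38 and 3.30, and the third, at 7.41, had 0.44. Healthy R.207 and R.208, at 4.35 and 4.44, had 3.30 and 3.95, while the 5 other healthy arrays of batch 6 ran from 7.22 to 7.84. With the ratio as a covariate no STAT3 call against healthy remained: KY1005.F gave 0.87 (adjusted p = 0.18), KY1005.Siro.D28 0.77 (adjusted p = 0.065), Auto.D36 0.51 (adjusted p = 0.309) and Auto.D14 -0.09 (adjusted p = 0.921). Without the 6 arrays of high ratio Auto.D36 stayed called (1.24, adjusted p = 0.0143) and KY1005.F (0.81), KY1005.Siro.D28 (0.60) and Auto.D14 (-0.24) did not. Within the batches that hold the group none of the 4 was called (adjusted p from 0.0506 to 0.48). Single arrays also decided these calls. The KY1005.F call was lost without any 1 of its 3 arrays (adjusted p from 0.0994 to 0.171), that of KY1005.Siro.D28 without R.221 (0.0596), that of Auto.D36 without R.200, R.201 or R.202 (0.0742 to 0.144), and that of Auto.D14 without R.201 or R.202 (-1.42 and -1.22, adjusted p = 0.134 and 0.23). Of the other probe sets, IL23R MmugDNA.42868.1.S1_at also followed the ratio by rank (rho = -0.476, adjusted permutation p = 0.00445, r = -0.345), and IL17RE Mmu.11707.1.S1_at by Pearson's r alone (0.416, adjusted permutation p = 0.0262, rho = 0.107, and 0.195 without the 2 farthest arrays).

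**Figure D3:**
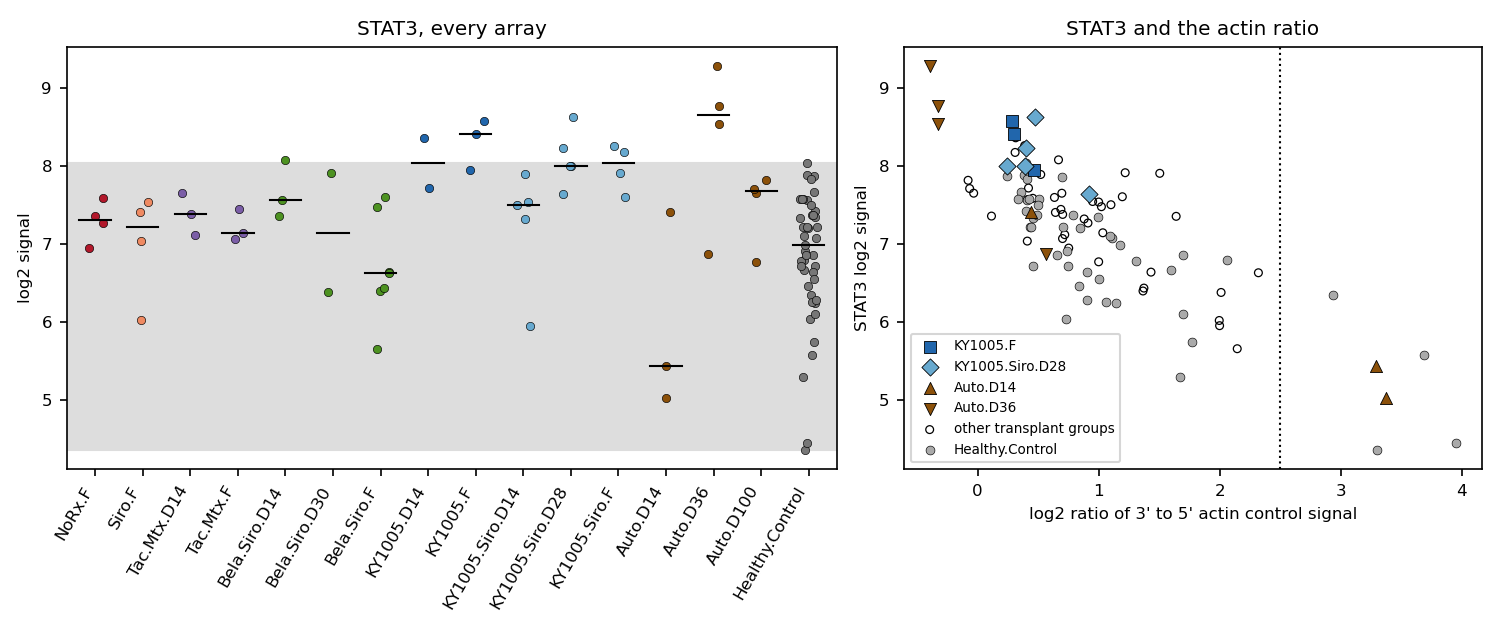
Left, log2 signal of STAT3 on every array by group, with Healthy.Control at the right, group medians as bars and the healthy range as a grey band. Right, the same signal against the actin ratio (log2 of the 3' over the 5' control signal), with the dotted line at 2.5. STAT3 declines along the ratio in healthy arrays (Pearson r = -0.814), and 2 of the 3 Auto.D14 arrays lie beyond the line.

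STAT3 also gave the only called member in KY1005.Siro.D14 against Auto.D14, at 7.32, 7.50, 7.54, 7.89 and 5.95 in KY1005.Siro.D14 and 5.03, 5.43 and 7.41 in Auto.D14. The difference was 2.31 ± 0.68 (adjusted p = 0.0285, with 4.75% of all probe sets higher and 8.88% called either way), and was 1.29 without a batch term (adjusted p = 0.217) and -0.02 without the arrays of high actin ratio. The call was also lost without R.201, R.202, R.219 or R.220 (1.85 to 2.23, adjusted p from 0.0508 to 0.159). The groups share neither a batch nor a transplant type. In Auto.D36 against Auto.D14, a comparison added later, STAT3 was 3.12 ± 0.68 higher (adjusted p = 0.00286, with 5.64% of all probe sets higher and 7.07% called either way) and 0.60 higher with the actin ratio as a covariate (adjusted p = 0.983), and its call was lost without R.202 (2.66, adjusted p = 0.069). The 3 genes most like STAT3 over the 16 fitted group levels were UBE2G2 (r = 0.952), EIF2S3 (0.949) and PDPK1 (0.948).

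Of 10 receptors and kinases upstream of STAT3, 8 were measured, and few were called in any group. Of all probe sets 27.5% were called in NoRx.F, 19.4% in Auto.D14 and 9.26% in Auto.D36. The share was 3.28% in KY1005.F and 6.84% in KY1005.Siro.F. IL6R, the IL-6 binding chain that naive T cells carry, fell by 2.41 ± 0.29 in NoRx.F, by 1.03 ± 0.37 in Auto.D14 and by 0.90 ± 0.29 in Auto.D36. IL12RB1, the chain that IL-12 and IL-23 receptors share, rose by 0.68 ± 0.15 in NoRx.F, 0.59 ± 0.17 in KY1005.F and 0.71 ± 0.15 in Auto.D36. JAK2, the kinase bound to IL23R, rose by 1.03 ± 0.26 in KY1005.F and 0.96 ± 0.24 in KY1005.Siro.F. IL6ST, the signalling chain gp130, fell by 1.76 ± 0.61 in Auto.D14. There the arrays of R.201 and R.202 had log2 actin ratios of 3.30 and 3.38. Whether the IL6R and IL6ST falls in Auto.D14 depend on that ratio was not tested. Of 7 genes that STAT3 induces, 6 were measured, and in KY1005.Siro.D28 3 rose and none fell (median difference 0.75, 12.1% of all called). There SOCS3, the feedback inhibitor of STAT3 signalling, rose by 2.01 ± 0.28, PIM1, a survival kinase, by 1.44 ± 0.22 and BCL3, a nuclear IκB protein, by 0.88 ± 0.23. PIM1 rose in each of the 5 groups with KY1005, by 1.29 ± 0.30 to 1.53 ± 0.24, and in Siro.F and the 3 Bela.Siro groups, by 0.81 ± 0.21 to 1.17 ± 0.29. Of all probe sets 0.202% to 12.1% were called in the KY1005 groups and 1.14% to 10% in the others. In NoRx.F 1 of the 6 rose, BCL3 by 1.07 ± 0.23, and 1 fell, MYC, a driver of growth, by 1.41 ± 0.32. There 13.5% of all probe sets were called higher and 14% lower. The KY1005 groups share batch 6 with healthy R.207 and R.208, whose log2 actin ratios were 3.30 and 3.95. Whether the JAK2, SOCS3, PIM1 and BCL3 differences of the KY1005 groups depend on that ratio was not tested.

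RORA was lower in recipients without prophylaxis and, on 1 of its 2 probe sets, higher in KY1005.Siro.D28. The probe sets, MmugDNA.26193.1.S1_at and MmugDNA.789.1.S1_at, correlated at r = 0.978 over the 45 healthy samples (adjusted permutation p = 9e-05), with rho = 0.977 (0.00018). In NoRx.F they were 8.98, 9.24, 9.43 and 9.70 and 8.88, 9.23, 9.35 and 9.78, against healthy medians of 10.22 and 10.24. All 4 NoRx.F arrays lay below the healthy medians and within the healthy ranges, which reach down to 8.18 and 7.77. RORA fell by 0.88 ± 0.30 (adjusted p = 0.0231) and 0.97 ± 0.34 (adjusted p = 0.0252) on these probe sets, and by 0.78 and 0.88 within the batches that hold the group (adjusted p = 0.0369 and 0.042). Either call was lost without R.52 (adjusted p = 0.0925 and 0.102), without R.53 (0.0756 and 0.0752), with the plasma cell level as a covariate (-0.78 and -0.88, adjusted p = 0.0918 and 0.0875) and with the proliferation level as a covariate, where the differences were -1.10 and -1.24 (adjusted p = 0.156 and 0.154).

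In Siro.F RORA was uneven. MmugDNA.789.1.S1_at was 8.61, 8.83, 9.13 and 10.19 in Siro.F, where the array of R.17 stood near the healthy median of 10.24, and it fell by 1.07 ± 0.33 (adjusted p = 0.0245). The call was kept in 1 of 4 fits that left out an array, the one without R.17 (-1.38). Without R.13, R.18 or R.16 it was -0.86, -0.94 and -1.03 (adjusted p = 0.175, 0.158 and 0.066). MmugDNA.26193.1.S1_at, at 8.80, 8.95, 9.51 and 10.28, had a difference of -0.81 ± 0.29 that was not called (adjusted p = 0.0651).

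In KY1005.Siro.D28 MmugDNA.789.1.S1_at was 10.77, 10.80, 10.82, 11.03 and 11.27, all above the healthy median of 10.24, and rose by 1.03 ± 0.34 (adjusted p = 0.0332). MmugDNA.26193.1.S1_at, at 10.52, 10.61, 10.71, 10.77 and 10.99, had 0.83 ± 0.30 (adjusted p = 0.058). Healthy R.207 and R.208 of the same batch, which have high actin ratios, were at 8.90 and 7.77 on MmugDNA.789.1.S1_at, and the 5 other healthy arrays of that batch at 10.24 to 10.83. Without the arrays of high actin ratio the difference was 0.40 (adjusted p = 0.665), without a batch term 0.73 (adjusted p = 0.0584), and within batch 6 alone 1.03 (adjusted p = 0.248). The call was also lost without R.217, R.220 or R.221 (0.95, 1.06 and 1.00, adjusted p = 0.0916, 0.0525 and 0.083).

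RORA also differed between KY1005 with sirolimus and no prophylaxis. On MmugDNA.789.1.S1_at KY1005.Siro.D14 was 10.34, 10.43, 10.46, 10.69 and 11.18, against 8.88, 9.23, 9.35 and 9.78 in NoRx.F, with no overlap. The differences in KY1005.Siro.D14 were 1.50 ± 0.43 and 1.68 ± 0.48 on MmugDNA.26193.1.S1_at and MmugDNA.789.1.S1_at (adjusted p = 0.00991 and 0.00968). Of all probe sets 7.38% were called higher in this comparison. The share of all probe sets without overlap is not given, here or in the comparisons below. The RORA differences were called in all 9 fits that left out an array, but not when arrays of high actin ratio were left out (0.95 and 1.04, adjusted p = 0.0931 and 0.0992), with array weights (0.97 and 1.07, adjusted p = 0.116 and 0.115), or with the proliferation or plasma cell level as a covariate (adjusted p from 0.056 to 0.0654). KY1005.Siro.D28 against NoRx.F, a comparison added after the values were seen, was also without overlap. There the RORA differences were 1.70 ± 0.43 and 2.00 ± 0.48 (adjusted p = 0.00184 and 0.00111, with 13% of all probe sets higher). These were called in all 9 such fits and under all 13 other alternatives, where they lay between 1.16 and 1.94 and between 1.35 and 2.27. Without a batch term they were 1.39 and 1.63 (adjusted p = 0.000971 and 0.000534). KY1005.F against NoRx.F gave 1.35 ± 0.47 and 1.49 ± 0.53 (adjusted p = 0.0539 and 0.0578, not called). The KY1005 and NoRx.F groups share no batch and differ in day, so those and the regimen cannot be told apart.

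Against Siro.F, which shares sirolimus, KY1005.Siro.D14 was 1.78 ± 0.47 higher on MmugDNA.789.1.S1_at (adjusted p = 0.0376, with 0.511% of all probe sets higher and 1.12% called either way) and 1.43 ± 0.42 higher on MmugDNA.26193.1.S1_at without a call (adjusted p = 0.0615). The KY1005.Siro.D14 arrays, from 10.34, lay above all Siro.F arrays, up to 10.19, on the first of these. The call was lost without R.13, R.16, R.18, R.217 or R.219 (1.57 to 1.76, adjusted p from 0.0616 to 0.142) and without the arrays of high actin ratio (1.13, adjusted p = 0.215). This comparison was added after the values were seen. Among the transplant groups RORA spread widest in Bela.Siro.F and Bela.Siro.D30, with 11.88 for R.38 and 9.90 for R.42 in Bela.Siro.D30 and 9.28 to 11.33 in Bela.Siro.F on MmugDNA.789.1.S1_at. Over the 16 fitted group levels RORA was most like DAAM1 (r = 0.910), PRMT9 (0.887) and RYBP (0.877).

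**Figure D4:**
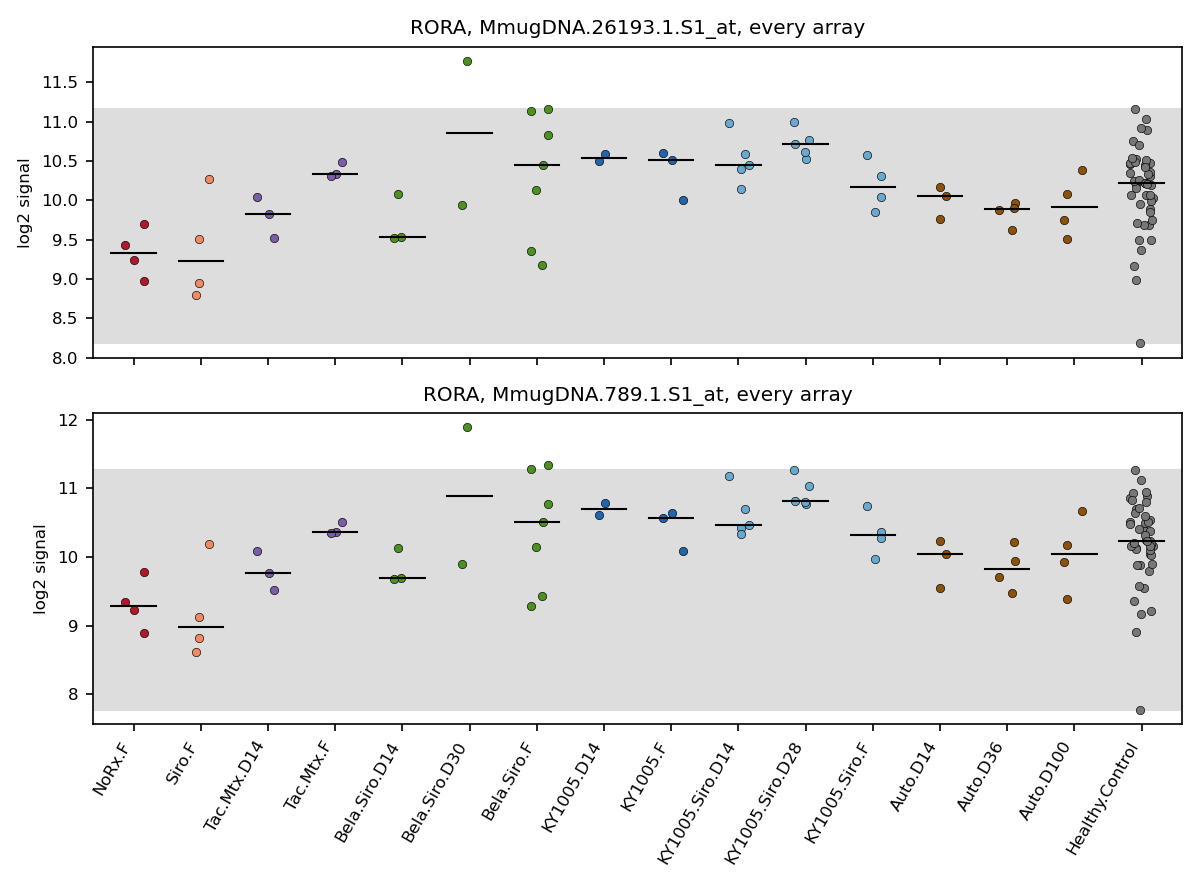
Log2 signal of RORA on every array for its 2 probe sets (upper and lower panel), with groups along the horizontal axis, Healthy.Control at the right, group medians as bars and the healthy range as a grey band. In both panels all NoRx.F arrays lie below the healthy median and all KY1005.Siro.D28 arrays lie above it.

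Of 9 other cofactors of Th17 differentiation, 7 were measured. In NoRx.F 3 of these fell and none rose (median difference -0.62), where 14% of all probe sets were called lower and 27.5% either way. TGFBR1, a receptor chain for TGF-β, which starts Th17 differentiation with IL-6, fell by 1.63 ± 0.15. RUNX1, a factor of the Runt family, fell by 1.51 ± 0.15, and NFKBIZ, a nuclear IκB protein that Th17 cells need in mice, by 0.75 ± 0.23. In KY1005.Siro.D28 against NoRx.F, a comparison added after the values were seen, 4 of the 7 rose and 1 fell (median difference 1.40, 24% of all called). TGFBR1 rose by 1.55 ± 0.21, NFKBIZ by 1.53 ± 0.32, RUNX1 by 1.40 ± 0.21 and RBPJ, the effector of Notch signals, by 1.40 ± 0.40, while TGFBR2 fell by 1.11 ± 0.20. All 6 proliferation genes fell in the same comparison (median difference -3.47). Of 10 factors listed as opposing the program 7 were measured, and 2 fell and none rose in Bela.Siro.F (10% of all called): GFI1, a repressor of Th17 genes in mice, by 1.57 ± 0.35 and TBX21, the Th1 factor T-bet, by 1.54 ± 0.36. GFI1 also fell by 1.48 ± 0.43 in KY1005.Siro.D14, fell by 1.90 ± 0.43 in KY1005.Siro.D28 and fell by 1.93 ± 0.47 in KY1005.Siro.F. In KY1005.Siro.D28 2 of the 7 listed genes rose, STAT5A, a transducer of IL-2, by 1.27 ± 0.23 and IKZF1, which encodes Ikaros, by 0.53 ± 0.17. Whether IKZF1 or the other listed genes oppose the program in these cells was not tested. The list's median difference there was 0.02, with 12.1% of all probe sets called. Whether the differences of the KY1005.Siro groups in these lists depend on the actin ratio of healthy R.207 and R.208 was not tested.

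The products and markers of Th17 cells gave scattered calls. Of 11 listed 7 were measured. DPP4, the peptidase CD26 found on Th17 and other memory cells, rose in 8 of 15 groups, from 1.01 ± 0.26 in Siro.F to 1.61 ± 0.27 in KY1005.Siro.D28. Whether the DPP4 differences depend on the actin ratio was not tested. IL17F rose by 0.68 ± 0.13 in NoRx.F, with a mean of 5.72 in NoRx.F and 5.05 in Healthy.Control. The healthy mean lies under the median of all values. In Bela.Siro.F IL26, a Th17 cytokine of primates, rose by 2.05 ± 0.31 and IL22, the epithelial cytokine of Th17 cells, by 0.86 ± 0.19. Their healthy means of 3.05 and 4.03 lay far under the median of all values. CXCR6, a homing receptor, fell there by 1.60 ± 0.41. CCR6, the homing receptor that marks Th17 cells, was called in no group against healthy.

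IL23R was dim and was called in no comparison. Its mean over all arrays was 4.91 on MmugDNA.37420.1.S1_at and 5.10 on MmugDNA.42868.1.S1_at, and it reached the median of all values, 5.21, on 22 and 33 of 101 arrays. Small changes in such signals are therefore not resolved. The probe sets correlated at r = 0.774 in the healthy samples (adjusted permutation p = 9e-05), with rho = 0.593 (0.00018). The largest difference from healthy was in Tac.Mtx.F, at 5.26, 5.67 and 6.10 and 5.52, 5.79 and 6.03, against healthy medians of 4.91 and 5.07. It was 0.76 ± 0.38 and 0.71 ± 0.32 (adjusted p = 0.178 and 0.127). In Bela.Siro.F the lowest, median and highest were 3.92, 5.02 and 7.09 and 4.34, 5.04 and 6.67, and the highest were those of R.38, with 6.75 and 6.17 for R.66. R.38 was also high in Bela.Siro.D30, at 6.03 and 6.35, and at 4.99 and 5.37 in Bela.Siro.D14.

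IL17RE was called in 1 group, on 1 of its probe sets. In Bela.Siro.F MmugDNA.2705.1.S1_at had a lowest, median and highest of 6.33, 6.63 and 6.93, against 5.76, 6.39 and 6.86 in Healthy.Control, and rose by 0.30 ± 0.10 (adjusted p = 0.0426). Of its 7 arrays 6 lay above the healthy median. On Mmu.11707.1.S1_at the values were 6.29, 6.91 and 7.88, and the difference of 0.46 ± 0.17 was not called (adjusted p = 0.0679). The called difference was lost without R.49, R.66, R.67 or R.68 (adjusted p from 0.0594 to 0.144), within batch 3 alone (0.30, adjusted p = 0.0892), with the actin ratio as a covariate (0.27, adjusted p = 0.0706) and with the myeloid level as a covariate (0.26, adjusted p = 0.194). Against NoRx.F, at 6.23, 6.35, 6.46 and 6.65, Mmu.11707.1.S1_at was 0.82 ± 0.27 higher in Bela.Siro.F (adjusted p = 0.0269, with 7.56% of all probe sets higher), a comparison added after the values were seen between groups that share no batch. On MmugDNA.2705.1.S1_at the same comparison gave 0.14 ± 0.16 (adjusted p = 0.653, not called). The call on Mmu.11707.1.S1_at was lost without R.38, R.66, R.67, R.50 or R.52 (0.69 to 0.80, adjusted p from 0.0528 to 0.071). The same animals R.38, R.66 and R.67 had the highest Mmu.11707.1.S1_at (7.57, 7.88 and 7.63) and the highest RORA on MmugDNA.789.1.S1_at (11.29, 11.33 and 10.78) in Bela.Siro.F. The monocyte genes S100A8 and S100A9 rose by 4.59 ± 0.77 and 5.01 ± 0.79 in Bela.Siro.F. There 4 of 11 measured myeloid markers rose (5.23% of all probe sets higher), with mean levels of 6.98 to 9.46 against 5.42 to 8.15 in Healthy.Control. The part of such cells in the IL17RE difference was not tested beyond the covariate.

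Of 4 other chains of the IL-17 receptors 2 were measured. IL17RA, the shared chain of the IL-17 receptors, fell by 1.01 ± 0.33 in NoRx.F, fell by 1.17 ± 0.41 in Auto.D14, fell by 1.19 ± 0.35 in Auto.D100 and rose by 1.30 ± 0.35 in KY1005.Siro.F. The same receptor chain is abundant in monocytes and granulocytes. In KY1005.Siro.F 6 of 11 myeloid and 4 of 5 measured granulocyte markers also rose, where 6.84% of all probe sets were called either way. The mean myeloid level of its 4 arrays ran from 5.93 to 10.96. The part of such cells in the IL17RA difference was not tested. Nor was it tested whether the Auto.D14 and KY1005.Siro.F differences of IL17RA depend on the actin ratio. IL17RC was called in no group against healthy.

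**Figure D5:**
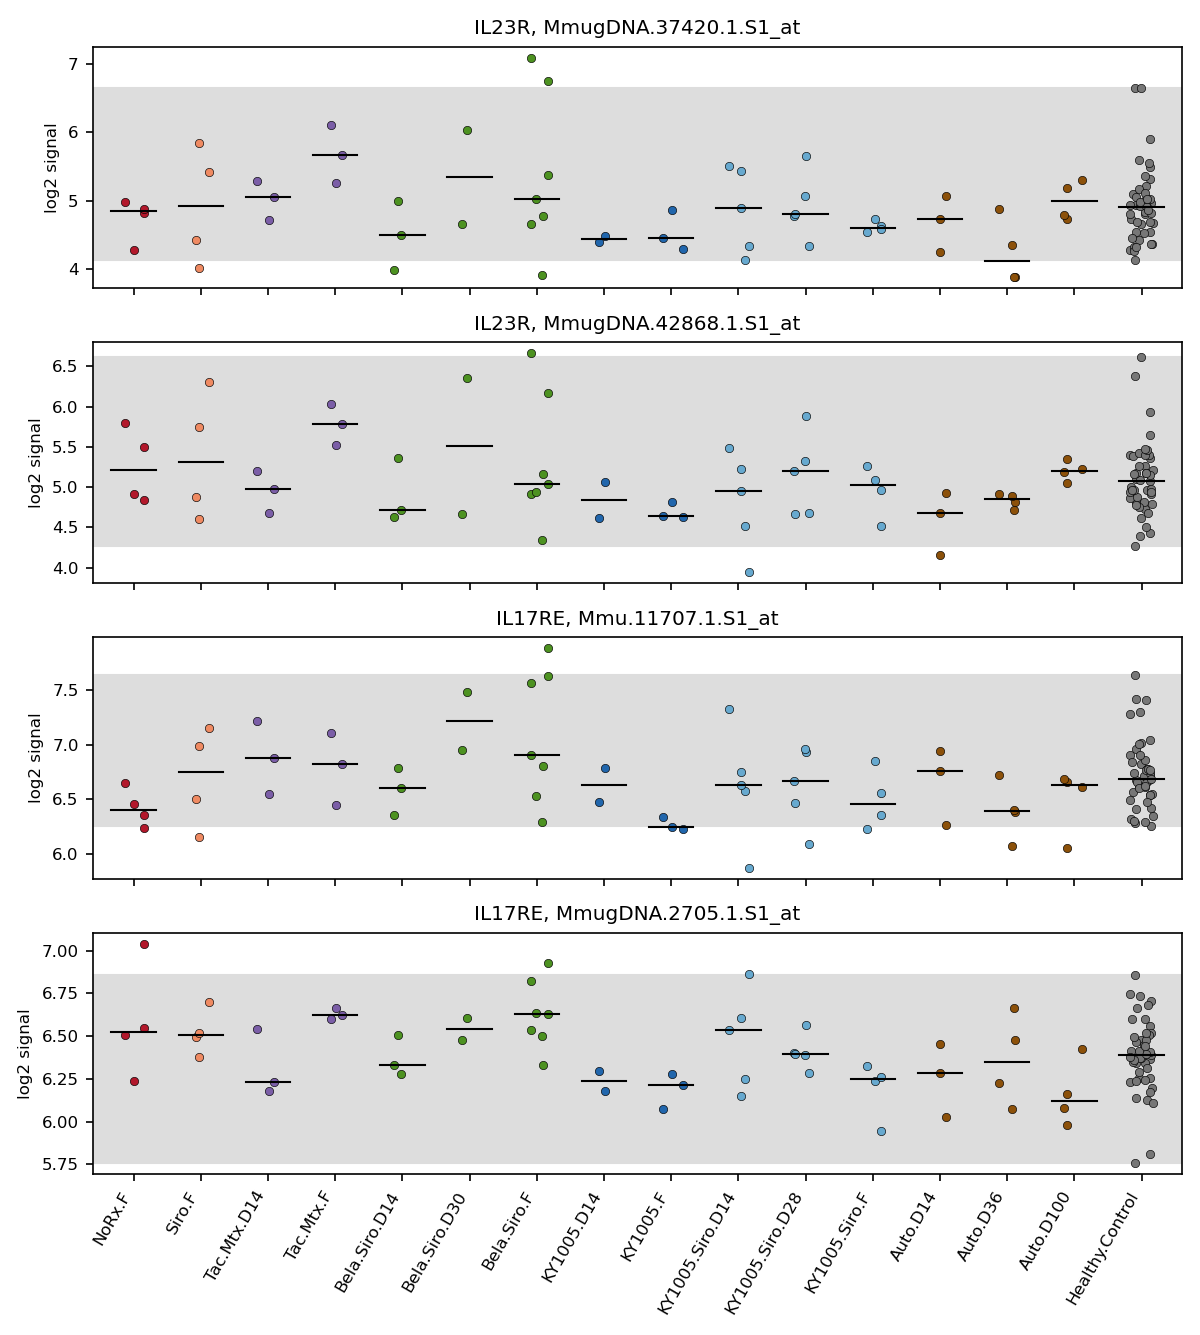
Log2 signal on every array of the 2 probe sets of IL23R (upper panels) and of IL17RE (lower panels), with groups along the horizontal axis, Healthy.Control at the right, group medians as bars and the healthy range as a grey band. The Bela.Siro.F points of IL23R spread from 3.92 to 7.09 in the top panel, and most IL17RE points lie inside the healthy band.

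In healthy animals the 6 genes varied largely apart from each other. Of 18 pairs of probe sets tested, BATF and IRF4 had r = 0.098 (adjusted permutation p = 0.668, rho = 0.151), and BATF and RORA r = 0.042 (adjusted permutation p = 0.814, rho = -0.026). RORA MmugDNA.789.1.S1_at and IL23R MmugDNA.42868.1.S1_at had r = 0.459 (rho = 0.380, adjusted permutation p = 0.0153 and 0.0471), with r = 0.394 without the 2 farthest arrays and 0.474 within batches. STAT3 and the same IL23R probe set had r = 0.384 (rho = 0.469, adjusted permutation p = 0.032 and 0.00762), and both follow the actin ratio. RORA and STAT3 had r = 0.387 (adjusted permutation p = 0.032, rho = 0.138), which rests on 2 arrays and was -0.0353 without them. The probe sets of IL17RE had r = 0.430 (adjusted permutation p = 0.0153, rho = 0.363). The healthy spread was widest for STAT3 (SD 0.84) and RORA (SD 0.55 and 0.64) and narrowest for IL17RE MmugDNA.2705.1.S1_at (SD 0.22) and IRF4 (SD 0.24).

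A total of 11 transplanted animals also had a healthy array, which gave 18 arrays after transplant to set beside the same animal. BATF was above the animal's own healthy level on 18 of 18, by 0.06 to 2.09, with a median of 0.38. In Siro.F it was 0.97, 1.71 and 2.09 above in R.13, R.16 and R.18, and in NoRx.F 1.31 above in R.53. RORA MmugDNA.789.1.S1_at was below the own healthy level on 13 of 18 arrays, with differences from -2.13 to -1.56 in R.13, R.16 and R.18 of Siro.F. In R.53 of NoRx.F RORA differed from the own healthy level by 0.06 on that probe set and by -0.13 on MmugDNA.26193.1.S1_at. The healthy levels of R.53 were 9.17 and 9.37 on these. IRF4 was above on 13 of 18, STAT3 on 11 of 18 (from -2.44 to 3.47), and IL23R MmugDNA.42868.1.S1_at on 4 of 18. R.200, R.201, R.202 and R.49 gave several arrays after transplant, each set against the same healthy value, so the 18 are not independent. These are descriptions without a test, and some of these pairs of arrays lie in different batches.

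Along the time courses of KY1005.Siro and Tac.Mtx no member was called. Of the 9 probe sets none was called in KY1005.Siro.D28 against KY1005.Siro.D14 (0.00946% of all called), in KY1005.Siro.F against KY1005.Siro.D28 (1.85%) or in Tac.Mtx.F against Tac.Mtx.D14 (0.00631%), where limma gave 0, 0 and 1 of the 9 at an unadjusted p under 0.05, against 2996, 3322 and 1864 of all 31703. STAT3 in KY1005.Siro.D14 was 7.32 to 7.89 apart from R.221 at 5.95, which stood at 8.62 in KY1005.Siro.D28. The difference between these groups of 5 animals was 0.86 ± 0.46, from the fit that does not pair the arrays of an animal. RORA differed by 0.32 ± 0.37 in KY1005.Siro.D28 against KY1005.Siro.D14 and by -0.60 ± 0.39 in KY1005.Siro.F against KY1005.Siro.D28 on MmugDNA.789.1.S1_at. None was called in NoRx.F against Auto.D36 (4.12%), in Auto.D100 against Auto.D36 (0%) or in Tac.Mtx.F against NoRx.F (5.19%), with 1, 1 and 5 of the 9 at an unadjusted p under 0.05, against 5602, 1492 and 6447 of all 31703. The change of KY1005.Siro from day 14 to its last group minus the change of Auto from day 14 to day 100 was called for no probe set at all, with 3266 of 31703 and none of the 9 at an unadjusted p under 0.05.

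The patterns of the other members over the 16 fitted group levels were most like SLC9B2 (r = 0.845), ARL11 (0.829) and TACC3 (0.825) for IRF4, SUPT3H (0.822), ARHGAP10 (0.818) and MAGED1 (0.788) for IL23R, and KLF8 (0.895), CHN1 (0.879) and CLNS1A (0.873) for IL17RE. Among the members themselves the closest pairs were IRF4 with STAT3 (r = 0.622) and IL17RE with IL23R (0.602). These levels share the healthy arrays and the batch terms of the fit and are given as a description.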

How the data were processed

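Sorted CD3+ T cells of rhesus macaques were measured on Affymetrix arrays, and the deposited table holds log2 values for 52865 probe sets that were made by RMA with affy, per the submitters' processing notes. Their versions, and any adjustment for batch before deposit, are not given in the sources used here. Groups, animals and batches came from the labels, and samples of a group are separate animals. The 2 healthy arrays of R.201 differed by less (SD 0.239) than 20 other pairs of arrays (SD 0.335 to 0.557) and were averaged and counted as 1 sample, which left 101 arrays. The 158 control probe sets were dropped, and a probe set was tested where 3 or more arrays held a value no lower than the overall median (5.21), which 31703 did.

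All 16 groups were fitted together with limma 3.58.1 in R 4.3.3, with batch as a factor, the eBayes prior and Benjamini-Hochberg adjustment over all probe sets tested (80 residual and 3.38 prior degrees of freedom). The script was tested on simulated data. Permutation tests were two-sided with 100000 resamples. The platform annotation pairs 24969 probe sets with 1 gene, 361 with several and 27535 with none. Of those with 1 gene, 24629 matched RefSeq T2T-MMU8v2.0 with no change of symbol. For a listed gene the brightest tested probe set that names it alone was used, and up to 4 called genes of a list with the largest differences, or any gene of a list with 8 or fewer measured, could be named per comparison. For likeness the 3 genes of highest Pearson r were named. The members, lists and rules were chosen with earlier results of these data known. The reported differences, also those along the time courses, came from the fit of group and batch, which does not pair the arrays of an animal. Such arrays were matched by animal name for the own healthy levels, for alternative fits and for correlations. Their residuals correlated at r = -0.085 to 0.441 over 5 pairs, -0.064 to 0.366 over 4 pairs and 0.221 to 0.395 over 3 pairs along the time courses. No sequence is printed, and no genome coordinates were used.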

Additional observations from a re-analysis of the deposited data

Results flagged for a closer look

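In Auto.D100 STAT3 was 6.77 on the array of R.60, while the 3 other arrays lay between 7.65 and 7.82, a gap of 0.842 of the group's range. The actin ratio of that array (log2 1.00) was the highest of the group, whose median was -0.05. In the same group IL17RE Mmu.11707.1.S1_at was 6.05 on the array of R.202, with the others between 6.61 and 6.68, a gap of 0.882 of the range. These are 2 arrays far from the rest of their group in 72 such tests, where chance gives about 1 in 20.

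Over 54 tests of a member over time, between time points of a regimen or between the changes in KY1005.Siro and Auto, 1 passed the test of the difference itself: STAT3 was 3.12 higher in Auto.D36 than in Auto.D14, where 2 of the 3 arrays stand out by their actin ratio. Adding the ratio to the fit left a difference of 0.60 (adjusted p = 0.983 by limma). The part of RNA quality in it was not tested further.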

How the results depend on the processing

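Of 27 called differences, every one kept its direction under 13 of the 14 alternatives that gave a value for it, and 26 did when arrays of high actin ratio were left out. The number still called was 27 with the animal as a random block, a filter in 50% of the arrays, a trended prior or further quantile normalization, 25 with the myeloid level as a covariate, 24 without batch or without a filter, 20 with array weights, 19 with the plasma cell level, 18 with the actin ratio, 16 with only the groups compared or without arrays of high actin ratio, 12 with the proliferation level, and 7 of 17 within the batches that hold the group. Except where fewer samples or probe sets entered, the cause was not tested. The dim signal of IL23R and groups of 2 to 7 animals limit what could be called.

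Counts of called probe sets among the 9 that changed by over 1.5 times follow, against Healthy.Control unless a second group is named. With the actin ratio as a covariate they were 0 in Bela.Siro.F, 1 in KY1005.F, 0 in KY1005.Siro.D28, 1 in Auto.D14, 1 in Auto.D36, 0 in KY1005.Siro.D14 against Auto.D14, 1 in Bela.Siro.F against NoRx.F and 0 in Auto.D36 against Auto.D14. Array weights gave 4 in Tac.Mtx.F, 2 in Bela.Siro.F, 1 in KY1005.D14, 6 in KY1005.F, 1 in KY1005.Siro.D28, 2 in Auto.D100, 0 in KY1005.Siro.D14 against NoRx.F, 1 in Bela.Siro.F against NoRx.F, 0 in KY1005.Siro.D14 against Siro.F, 2 in Auto.D36 against Auto.D14 and 1 for the difference of changes over time between KY1005.Siro and Auto. The filter in 50% of the arrays gave 1 in KY1005.Siro.F and 1 in KY1005.F against NoRx.F, and quantile normalization 1 in KY1005.Siro.F. The myeloid level as a covariate gave 0 in KY1005.Siro.D14 and 1 in KY1005.Siro.F.

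Without batch the counts were 1 in Tac.Mtx.D14, 3 in Bela.Siro.F, 1 in KY1005.Siro.F, 1 in Auto.D14, 1 in NoRx.F against Auto.D36, 0 in KY1005.Siro.D14 against Auto.D14 and 4 in Bela.Siro.F against NoRx.F. Without a filter they were 0 in Bela.Siro.F, 1 in KY1005.F and 0 in KY1005.Siro.D14 against Siro.F. Within the batches that hold the group they were 1 in Siro.F, 0 in Bela.Siro.F, 0 in KY1005.F, 0 in KY1005.Siro.D14, 0 in KY1005.Siro.D28, 1 in Auto.D14 and 0 in Auto.D36. With only the groups compared they were 2 in NoRx.F, 1 in Siro.F, 0 in Bela.Siro.F, 1 in KY1005.F, 1 in KY1005.Siro.D28, 1 in Auto.D14, 3 in KY1005.F against NoRx.F, 0 in KY1005.Siro.D14 against Auto.D14, 2 in Tac.Mtx.F against NoRx.F, 1 in Bela.Siro.F against NoRx.F, 0 in KY1005.Siro.D14 against Siro.F and 0 in Auto.D36 against Auto.D14.

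Covariates chosen after seeing the data gave further counts. The plasma cell level gave 2 in NoRx.F, 1 in Siro.F, 0 in KY1005.Siro.D14 against NoRx.F and 0 against Siro.F. The proliferation level gave 1 in NoRx.F, 1 in Siro.F, 0 in Tac.Mtx.F, 0 in KY1005.F, 1 in KY1005.Siro.F, 0 in Auto.D36, 0 in KY1005.Siro.D14 against NoRx.F, 0 in Bela.Siro.F against NoRx.F and 0 in KY1005.Siro.D14 against Siro.F. Without arrays of high actin ratio, an alternative that leaves Auto.D14 with 1 array assumed to vary like other groups, the counts were 2 in Bela.Siro.F, 1 in KY1005.F, 0 in KY1005.Siro.D28, 0 in Auto.D14, 0 in KY1005.Siro.D14 against NoRx.F, 0 against Auto.D14, 0 against Siro.F, and 0 in Auto.D36 against Auto.D14. The STAT3 difference of KY1005.Siro.D14 against Auto.D14 was then -0.0201, and the healthy correlation of RORA and STAT3 was -0.0353 without the 2 farthest arrays.

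With the replicate block, the animal as a random effect (consensus correlation 0.110), the count was 2 in KY1005.Siro.D14 against Siro.F, and no other count moved by over 1.5 times. A fixed replicate block within a regimen called 0 of the 9 probe sets along the time courses, as did the fit without it.

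When 1 array was left out in turn the counts ran from 1 to 4 in NoRx.F, 1 to 3 in Siro.F, 0 to 1 in Tac.Mtx.F, 0 to 2 in Bela.Siro.F, 0 to 1 in KY1005.F, 0 to 1 in KY1005.Siro.D14, 0 to 2 in KY1005.Siro.D28, 0 to 1 in KY1005.Siro.F, 1 to 2 in Auto.D14 and 0 to 1 in Auto.D36. They ran from 0 to 1 in NoRx.F against Auto.D36, 0 to 1 in KY1005.Siro.D14 against Auto.D14, 1 to 3 in Bela.Siro.F against NoRx.F, 0 to 2 in KY1005.Siro.D14 against Siro.F and 0 to 1 in Auto.D36 against Auto.D14.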
